A study of Drosophila melanogaster with 6 samples.

Results

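The sites described here are the weak ROW peaks of Drosophila melanogaster S2 cells that carry no BEAF-32 peak. They are the ROW peaks on the chromosome arms 2L, 3L and 3R with a fold enrichment under 6 that overlap no BEAF-32 peak and have no BEAF-32 summit within 1000 bp. The rule found 2108 of them among 5115 ROW peaks on these arms, a share of 41.2%, and among 8788 ROW peaks in the whole list. S2 is a line of embryonic origin. The title of every sample begins with con, and beyond this the labels name no treatment or genotype for any sample. Chromatin from sonicated nuclei was recovered with an antibody against ROW in 3 samples and against BEAF-32 in 3 samples, and was barcoded and sequenced. All samples of an antibody share 1 peak list here, and the lists hold no values for single samples. Nothing below therefore has a replicate error or a test, and differences between classes of peaks are descriptions of these lists. Intervals on shares are 95% Wilson intervals, which cover counting error only, and neighbouring peaks are not independent.

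ROW carries zinc fingers and AT-hooks, which contact DNA, and works together with HP1c, a relative of the heterochromatin protein HP1. BEAF-32 binds insulators, the elements between neighbouring chromatin domains, and is often found near promoters. A peak caller sets the pile of sequenced fragments at a site against a local background, and a ratio of both is the fold enrichment. A weak peak is thus a site where this ratio is low, which can come with few fragments or with a high background. Both are described here for each site. No bases are shown for these sites, because no genome of the build dm3 was used here, and they are named by position on dm3, counted from 1.

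The 5115 ROW peaks on the 3 arms divide into classes by strength and by BEAF-32. Next to the 2108 weak peaks without BEAF-32 there were 1116 weak peaks on a BEAF-32 peak and 94 weak peaks that had a BEAF-32 summit within 1000 bp but no overlap. Of at least 6-fold there were 625 peaks without BEAF-32, 1151 on a BEAF-32 peak and 21 with only a close BEAF-32 summit. Peaks of at least 6-fold are called stronger peaks below.

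The sites were chosen by their fold enrichment, and the −log10 q follows it closely, so both are given only to say what the set holds. Fold enrichment ran from 1.48 to 5.99 with a median of 2.76 (interquartile range 2.21 to 3.72), so most sites lay far under the threshold. Of the 2108 sites, 835 were under 2.5-fold, 851 lay between 2.5 and 4, and 422 lay between 4 and 6. The −log10 q had a median of 13.7 (6.22 to 31.0) and ran from 1.47 to 439.6. It was under 5 at 346 sites, or 16.4%, and at least 100 at 88 sites, or 4.17%. The set thus spans calls close to the list's own q limit and calls far beyond it. The lowest −log10 q, 1.47, belonged to a site on 3L from 3271853 to 3272276 with a fold enrichment of 1.58, which was named after its value was seen.

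The peaks nearest the threshold, picked for their fold enrichment, are given with their fragments. The 3 sites just under it, on 3R from 8426782 to 8427241, on 2L from 19223832 to 19224241 and on 3R from 26874130 to 26874621, had the same fold enrichment of 5.99 and the same −log10 q of 60.1. The 3 peaks without BEAF-32 just over it had fold enrichments of 6.002, 6.005 and 6.006, at −log10 q of 181.7, 107.7 and 190.1. Those under the threshold each had 140 fragments at the summit, over a background of 22.5. Those over it had 432, 254 and 452 fragments over backgrounds of 71.1, 41.5 and 74.4.

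These fragment numbers are no column of the list and were solved from it. MACS2 writes the ratio of summit pileup plus 1 to local background plus 1, and a p-value from a Poisson distribution with the background as its mean, so both columns together fix the pileup and the background. The solved pileup came within 0.05 of a whole number at 8788 of 8788 ROW peaks and at 4781 of 4781 BEAF-32 peaks, with a largest deviation of 0.00533. The background never fell below 22.5 fragments in the ROW list, the value that 3101 of 8788 peaks shared, and this is called the genome-wide background here. Fragments can include PCR copies, so their Poisson intervals cover counting error only.

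The weak sites without BEAF-32 held a median of 79 fragments at the summit (interquartile range 58 to 124), from 38 to 1491. Weak peaks on BEAF-32 had a median of 105 (74 to 162), and stronger peaks without BEAF-32 one of 385 (245 to 650). The local background under the weak sites had a median of 24.0 fragments (22.5 to 36.1). At 956 of the 2108 sites it stood at the genome-wide background, a share of 45.4% (43.2 to 47.5), against 31.6% of all ROW peaks on the 3 arms. The share was 37.4% for weak peaks on BEAF-32 and 17.4% for stronger peaks without it.

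A low ratio did not always go with few fragments. At the genome-wide background a peak of up to 140 fragments stays under 6-fold, yet 403 of the 2108 sites (19.1%) had more than that. Set over the genome-wide background, these 403 sites would reach at least 6-fold, and their median local background was 58.8 fragments. There were 60 weak sites with at least as many fragments as the median stronger peak without BEAF-32. The richest was on 3L from 630094 to 630523, with 1491 fragments (95% Poisson interval 1416 to 1569) and a fold enrichment of only 2.77 over a background of 538.4. On 3R, the site from 19159416 to 19159819 had 1408 fragments at 3.11-fold over a background of 451.5. More sites, 956, stood at the genome-wide background with at most 140 fragments.

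**Figure D1:**
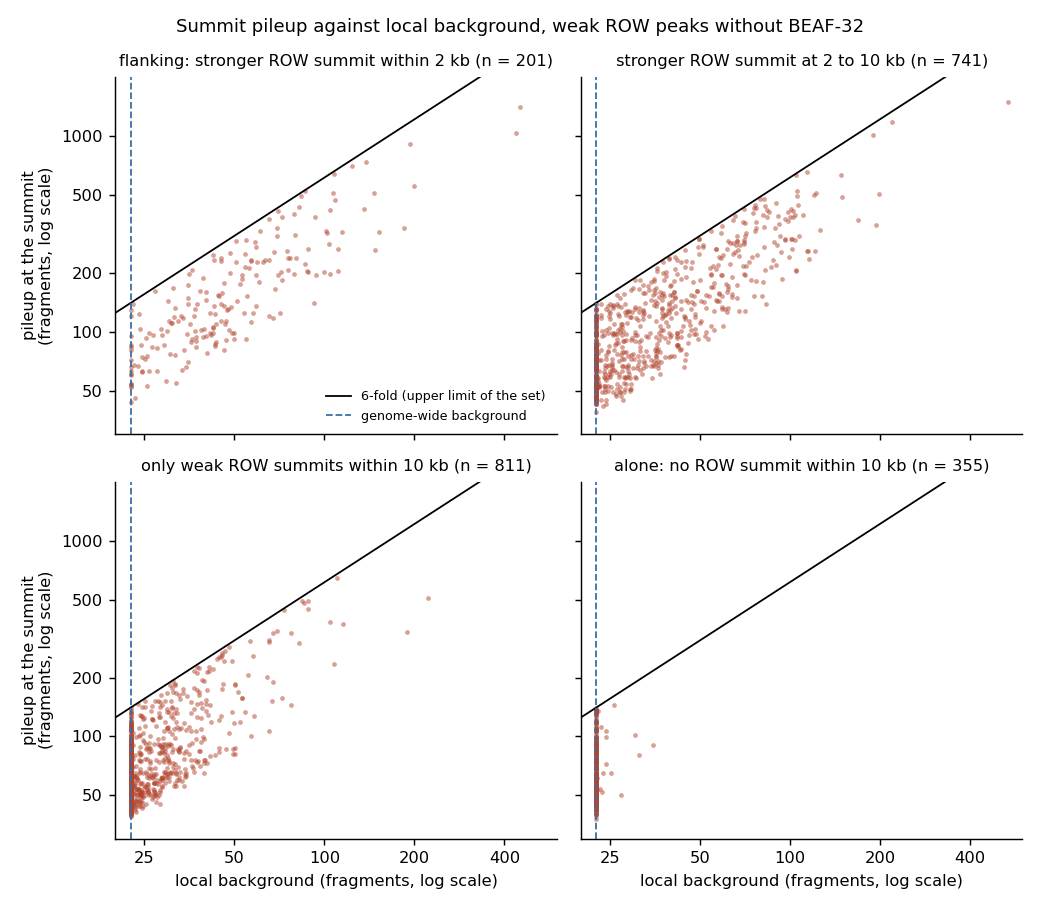
Fragments at the summit (vertical, log scale) against local background in fragments (horizontal, log scale) for the 2108 weak ROW peaks without BEAF-32, 1 point a peak, in 4 panels by neighbourhood; the black line marks 6-fold, the upper limit that the rule sets, and the dashed line the genome-wide background of 22.5. Flanking sites spread to the right, while 339 of the 355 sites that stand alone lie on the dashed line.

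The weak sites without BEAF-32 had a median width of 434 bp (interquartile range 343 to 597), and they ran from 278 bp, which is also the narrowest width among all ROW peaks of the 3 arms, to 2766 bp. Widths from 300 bp to under 500 bp made up 53.4% of the set, widths under 300 bp 8.54%, and widths of at least 1000 bp 6.07%. The 94 weak peaks with a BEAF-32 summit within 1000 bp but no overlap had a similar median of 425.5 bp. Weak peaks on BEAF-32 had a median width of 541.5 bp (420 to 769), where a wider interval is itself more likely to overlap a BEAF-32 peak, and stronger peaks without BEAF-32 one of 637 bp (560 to 840). Width was larger at higher fold enrichment inside the set, from a median of 383 bp under 2.5-fold to 422 bp between 2.5 and 4 and 543 bp between 4 and 6. Spearman's rho between fold enrichment and width was 0.33 over the 2108 sites, given as a description because both come from the same pile of fragments.

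Within the same band of fold enrichment, weak peaks on BEAF-32 were also the wider ones, except that both were close at the bottom. The bands do not remove the limit that a wider interval is more likely to overlap a BEAF-32 peak. Under 2.5-fold the medians were 383 bp without and 395.5 bp with BEAF-32. Between 2.5 and 4 they were 422 and 506 bp, and between 4 and 6 they were 543 and 660 bp. The median fragment numbers in these bands were 54 and 61, 83 and 88, and 142.5 and 154. The summit lay near the middle of the interval, at a median of 49.6% of the width, and in the first part of it at 1071 of 2108 sites.

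**Figure D2:**
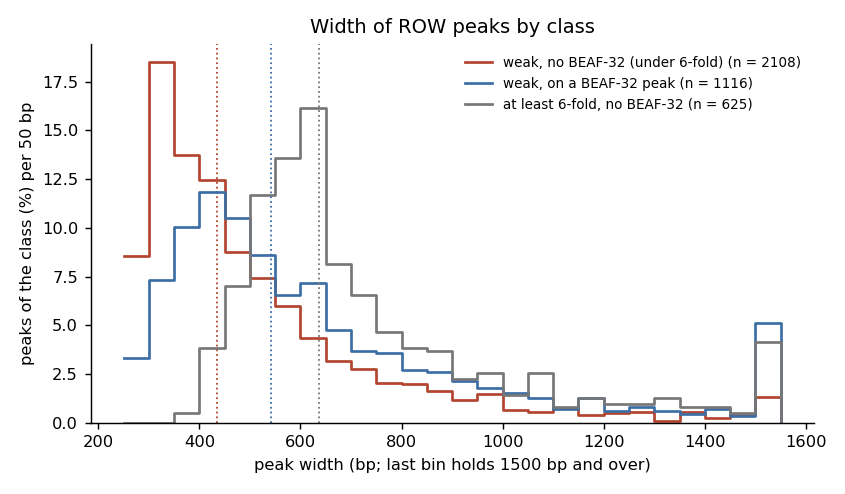
Share of peaks in each class (vertical, percent per 50 bp) by peak width in bp (horizontal) for weak ROW peaks without BEAF-32, weak ROW peaks on a BEAF-32 peak and ROW peaks of at least 6-fold without BEAF-32; dotted lines mark the medians of 434, 541.5 and 637 bp. The last bin collects all widths of 1500 bp and over.

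The 5 widest sites were not the strongest ones, and 4 of them lay on 2L. The widest, on 2L from 22678855 to 22681620, spanned 2766 bp at 3.01-fold with 75 fragments. Close to it, on 2L from 22671640 to 22674220, lay a site of 2581 bp at 2.46-fold, and a site of 2527 bp at 3.06-fold lay on 2L from 21605061 to 21607587. A site on 3R from 19839827 to 19842499 was 2673 bp wide at 4.99-fold. The 5 sites of highest −log10 q had widths of 404 to 914 bp. Of the 5 widest, 3 lay in the 2 Mb next to the centromere end of 2L.

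Few of the sites had a stronger ROW peak close by, at a share near that of all ROW peaks. Of the 2108 sites, 201 had a stronger ROW summit within 2000 bp and are called flanking, a share of 9.54% (8.35 to 10.9). Over all ROW peaks of the 3 arms, weak sites included, this share was 7.72%. It was 8.69% (7.18 to 10.5) for weak peaks on BEAF-32 4.80% (3.38 to 6.77) for stronger peaks without BEAF-32 and 28.7% (20.6 to 38.6) for the 94 weak peaks near a BEAF-32 summit. A further 741 sites (35.2%) had their nearest stronger ROW summit at 2 to 10 kb, and 811 (38.5%) had only weak ROW summits within 10 kb. The remaining 355 sites stood alone, with no other ROW summit of any strength within 10 kb, a share of 16.8% (15.3 to 18.5). The share standing alone was 13.8% over all ROW peaks, 10.1% (8.49 to 12.0) for weak peaks on BEAF-32, 14.4% (11.9 to 17.4) for stronger peaks without BEAF-32 and 1.06% (0.188 to 5.78) for weak peaks near a BEAF-32 summit. When restricted to sites of −log10 q of at least 10, the set gave 13.5% alone and 13.1% flanking. The shares over all ROW peaks were not recalculated at that limit, so these values have no matching share beside them.

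The distance to the nearest stronger ROW summit had a median of 11657 bp (interquartile range 5316 to 27870) and a maximum of 204983 bp. Under 1 kb there were 28 sites, and the closest was 636 bp away. At over 50 kb there were 249 sites, or 11.8% of the set. Weak peaks on BEAF-32 lay nearer to stronger peaks, at a median of 7714 bp, with 5.73% of them over 50 kb away. They held a larger share at 2 to 5 kb, 22.9% against 13.9%, while the shares at 1 to 2 kb were 7.97% and 8.21%.

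**Figure D3:**
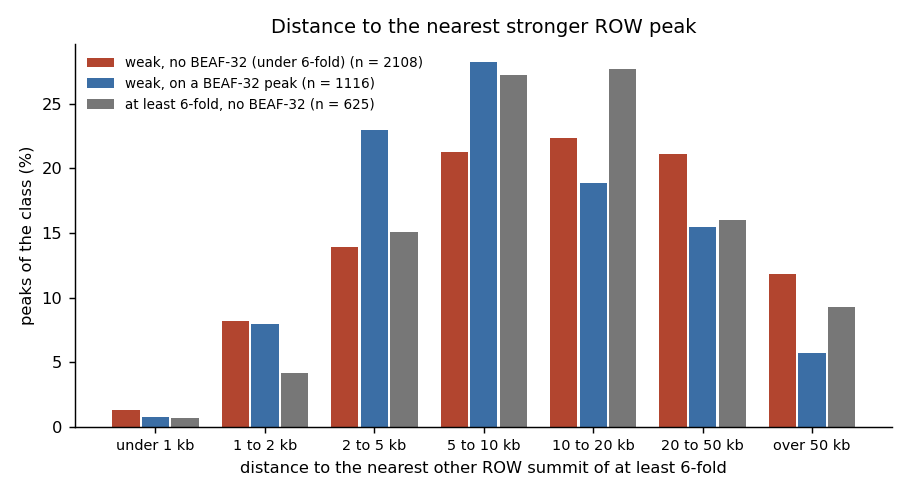
Share of peaks in each class (vertical, percent) by distance to the nearest other ROW summit of at least 6-fold (horizontal, in 7 bins) for the same 3 classes of ROW peaks as in the plot of widths. Of the 3 classes, weak peaks without BEAF-32 have the tallest bars at both ends, under 1 kb (1.33%), at 1 to 2 kb (8.21%), at 20 to 50 kb (21.1%) and over 50 kb (11.8%).

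The neighbourhood classes are given here with their fragments and background; the ratio is capped by the rule and can differ little between them. Flanking sites had a median of 136 fragments over a background of 44.9, and sites that stood alone had 61 fragments over 22.5. Their median fold enrichments were 2.99 and 2.63, and their median −log10 q were 26.1 and 9.49. Sites with a stronger peak at 2 to 10 kb had 97 fragments over 29.5, and sites with only weak company had 69 over 23.0. More than 140 fragments were found at 94 of 201 flanking sites (46.8%) and at 1 of 355 sites standing alone (0.282%), where the rule leaves little room for more, since 339 of them stood at the genome-wide background. Median widths were 415 bp for flanking sites, 440 and 451 bp for the middle classes and 403 bp for sites alone.

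The local background was lower beyond about 5 kb from a stronger summit than within it. From 4 to 5 kb, 7 of 81 weak sites without BEAF-32 stood at the genome-wide background (8.64%, 4.25 to 16.8). From 5 to 6 kb it was 33 of 104 (31.7%, 23.6 to 41.2), and from 9 to 10 kb 42 of 69 (60.9%). The median background was 48.1 fragments at 4 to 5 kb and 26.4 at 5 to 6 kb. The median pileup was 133 fragments at 4 to 5 kb and 78 at 5 to 6 kb, and the median fold enrichment 2.86 and 2.73. Weak peaks on BEAF-32 showed a similar step, with 7.46% at the genome-wide background at 4 to 5 kb and 34.8% at 5 to 6 kb. The sources used here do not say whether the background was taken from a control library or from the antibody sample. Its part in the ratios of the weak sites was not tested.

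**Figure D4:**
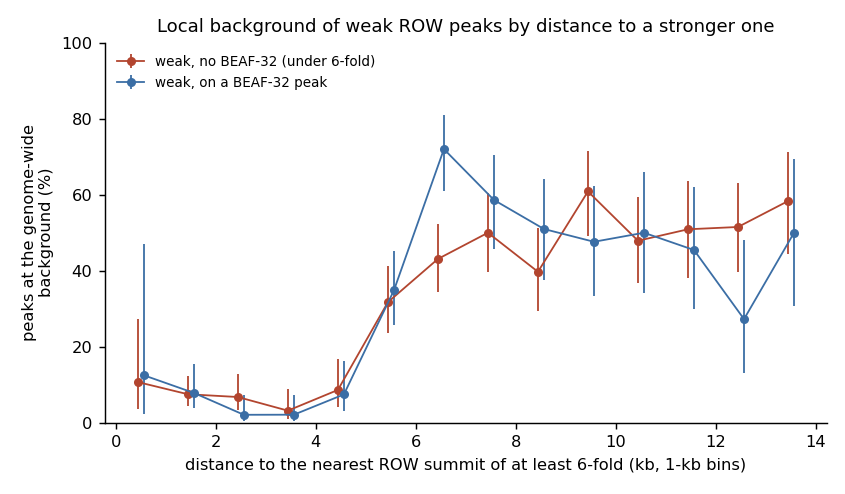
Share of weak ROW peaks whose local background equals the genome-wide one (vertical, percent, bars are 95% Wilson intervals) by distance to the nearest ROW summit of at least 6-fold (horizontal, kb, in bins of 1 kb), without BEAF-32 and on a BEAF-32 peak. For the peaks without BEAF-32 the share is 8.64% at 4 to 5 kb and 31.7% at 5 to 6 kb.

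Flanking sites lay at a median of 1420 bp from the stronger summit (interquartile range 1151 to 1668), with a median gap of 774 bp between the interval edges. They held a median of 0.343 of the stronger peak's fragments (0.236 to 0.463). Their local background was almost that of the stronger neighbour, with a median ratio of 1.00 (0.978 to 1.02). Both summits lie within 2000 bp of each other by definition, so their local backgrounds are not separate values. The 201 sites flanked 196 different stronger peaks. Of these, 191 had 1 flanking site and 5 had 2, and only 3 had such sites on both sides. Left of the stronger peak lay 93 sites and right of it 108.

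The stronger peaks next to flanking sites were BEAF-32 sites in 104 of 196 cases, or 53.1% (46.1 to 59.9), against 64.1% (61.8 to 66.2) of all 1797 stronger peaks. The rule lowers this count, because it bars weak peaks within 1000 bp of a BEAF-32 summit. A weak site lay within 2000 bp of 14.9% (12.3 to 17.9) of the stronger peaks without BEAF-32 and of 9.04% (7.51 to 10.8) of those on BEAF-32. At 2000 to 5000 bp, where that bar matters less, the shares were 18.1% (15.3 to 21.3) and 15.7% (13.7 to 17.9), with intervals that overlap.

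Single sites show what these neighbourhoods look like. The flanking site nearest the median −log10 q of its class, on 3R from 4875010 to 4875371, had 184 fragments at 2.53-fold over a background of 72.0. Its stronger neighbour, 1254 bp away and from 4873612 to 4874357, had 908 fragments at 12.2-fold over 73.7 and was a BEAF-32 site. The matching site among those alone, on 2L from 19941397 to 19941682, had 61 fragments (46.7 to 78.4) at 2.63-fold over 22.5, with the nearest ROW summit 53839 bp away. At nearly the same ratio, these sites held 184 and 61 fragments. Both were picked by −log10 q, which at a given ratio rises with the fragments, so this contrast follows from the choice. Among the remaining sites the matching one was on 3L from 769042 to 769440, with 131 fragments at 2.18-fold over 59.4 and a stronger summit 5856 bp away.

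The 5 sites of highest −log10 q all lay within 4 kb of a stronger ROW peak. The highest, 439.6, belonged to a site on 3R from 12060363 to 12060906 with 1175 fragments at 5.32-fold, and its stronger neighbour with 1883 fragments at 8.01-fold was 2042 bp away. The next was on 2L from 12002273 to 12003186, at −log10 q of 376.3 with 1009 fragments, 3810 bp from a stronger peak of 2176 fragments. The third was on 3R from 25599524 to 25599981, with a −log10 q of 303.0 and 914 fragments. The last 2 were on 2L from 19575529 to 19576059, with 704 fragments, and on 3R from 19159416 to 19159819, with 1408. Of the 88 sites with a −log10 q of at least 100, 80.7% had a stronger ROW summit within 10 kb, against 44.7% of all 2108. The rule shapes this group, because a site under 6-fold at the genome-wide background holds at most 140 fragments and reaches a −log10 q of no more than 60.1.

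The site with 1408 fragments belongs to a group on 3R in which a stronger peak has weak sites on both sides. The stronger peak, from 19160511 to 19161805, had 2885 fragments, a background of 447.7, a fold enrichment of 6.43 and a BEAF-32 peak. To its left lay the site just named, 1883 bp away. To its right, 1641 bp away, lay a site from 19162973 to 19163354 with 1033 fragments at 2.36-fold over 438.0.

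At the other end were the most isolated sites. The 5 farthest from any other ROW summit had 54 to 70 fragments, fold enrichments of 2.34 to 3.02 and −log10 q of 6.60 to 13.7, all at the genome-wide background. The most isolated lay on 2L from 17188955 to 17189429, 147058 bp from the nearest ROW summit and 179437 bp from the nearest BEAF-32 summit, with 70 fragments at 3.02-fold. Others were on 2L from 18297347 to 18297659 (138627 bp), on 3L from 24226282 to 24226687 (120462 bp), on 2L from 16040858 to 16041217 (118080 bp) and on 2L from 4682475 to 4682763 (111842 bp). In all, 26 sites had no other ROW summit within 50 kb, and their median width was 347 bp.

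The nearest ROW neighbour of a weak site was most often another such site. This held for 1064 of 2108 sites (50.5%), while these sites made up 41.2% of the ROW peaks. The neighbour was a weak peak on BEAF-32 at 18.2% of sites, a stronger peak on BEAF-32 at 16.8% and a stronger peak without BEAF-32 at 12.9%. Their shares of the ROW peaks were 21.8%, 22.5% and 12.2%. The rule bears on this comparison, because it bars BEAF-32 summits within 1000 bp of a weak site. Other weak sites without BEAF-32 are not barred there. Whatever its class, the nearest ROW summit was a median of 3248 bp away (interquartile range 1663 to 6904).

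Linking weak sites whose summits lay within 5000 bp of each other gave 1635 groups. Of the sites, 1281 (60.8%) had no other weak site without BEAF-32 in reach, 522 (24.8%) lay in pairs, 278 (13.2%) in runs of 3 or 4, and 27 in 5 runs of at least 5. The 2 longest runs had 6 sites each. The run on 3L from 14600681 to 14607124 had summits across 6.07 kb, fold enrichments of 1.89 to 3.76 and backgrounds of 35.9 to 40.3. The run on 3L from 17909537 to 17920114 reached over 10.1 kb, at 1.95 to 3.61-fold. Of the 3 runs of 5, the one on 2L from 2174973 to 2183037 had fold enrichments of 2.59 to 3.90. No stronger ROW peak lay inside any of these 3 runs. No BEAF-32 summit did either, but the rule bars one within 1000 bp of each site. With sites this close together, that covers much of each run, so the absence of BEAF-32 is largely set by the rule.

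BEAF-32 was usually well beyond the distance that the rule bars. The distance to the nearest BEAF-32 summit had a median of 8153.5 bp (interquartile range 3377 to 19390), and a maximum of 321936 bp. From 1 to 2 kb there were 284 sites (13.5%), from 2 to 5 kb 452 (21.4%), and over 50 kb 147 (6.97%). Stronger ROW peaks without BEAF-32 lay at a median of 5856 bp. The weak sites at 1 to 2 kb from BEAF-32 had a median of 122.5 fragments over a background of 36.9, and those over 50 kb away had 65 over 22.5. Their median fold enrichments were 3.04 and 2.59. Median distance to BEAF-32 was 1899 bp for flanking sites and 24120 bp for sites that stood alone.

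A background of at least 2 times the genome-wide one was found at 339 sites, or 16.1%. Of these, 287 had a stronger ROW summit within 10 kb, 48 had none but had a BEAF-32 summit within 10 kb, and 4 had neither. Among all 2108 sites these groups were 942, 409 and 757. The 3 of highest background among the 4, picked after their values were seen, had 54.1, 49.1 and 46.5 fragments. They lay on 3L from 7860714 to 7861522, on 3R from 8543103 to 8544640 and on 3R from 9881936 to 9882600, each with other weak ROW summits within 5 kb.

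Along the arms the weak sites were spread over their whole length, with local differences. Arm 2L held 656 of them (28.5 per Mb between the outermost ROW peaks), 3L held 732 (29.9 per Mb) and 3R 720 (25.8 per Mb). They made up 42.4% (39.99 to 44.9) of the ROW peaks on 2L, 42.7% (40.4 to 45.1) on 3L and 38.8% (36.6 to 41.1) on 3R. Shares of flanking sites were 8.99%, 9.56% and 10.0%, and shares standing alone were 18.1%, 15.3% and 17.2%, all with overlapping intervals. Median widths were 428.5, 438 and 437.5 bp, and median fold enrichments 2.59, 2.87 and 2.80.

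All 76 bins of 1 Mb with ROW peaks held some of these sites, from 5 to 65 with a median of 25 (interquartile range 19 to 35). The 3 richest bins were 2L from 22000001 to 23000000 with 65 sites, 2L from 8000001 to 9000000 with 63 and 3L from 23000001 to 24000000 with 55. In the bin on 2L at 8 Mb the weak sites were 48.1% of 131 ROW peaks, so other ROW peaks were dense there too. In the other 2 bins, at the centromere ends of the arms, they were 66.3% of 98 and 66.3% of 83 ROW peaks. Few sites lay on 2L from 15000001 to 16000000 and on 3L from 13000001 to 14000000, with 5 each among 22 and 28 ROW peaks.

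Each arm was cut into 10 segments of equal length from telomere to centromere. With the 3 arms pooled, the weak sites were 49.7% of ROW peaks in the last segment and 35.2 to 44.7% in the others. The last segment of 2L had 54.8 weak sites and 42.2 other ROW peaks per Mb, and that of 3L 35.5 and 25.3. In the last segment of 3R there were 22.6 weak sites and 43.1 other ROW peaks per Mb. Weak sites also slightly outnumbered the others elsewhere on 3L, with 33.5 against 31.8 per Mb in segment 5 and 40.4 against 39.6 in segment 8.

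**Figure D5:**
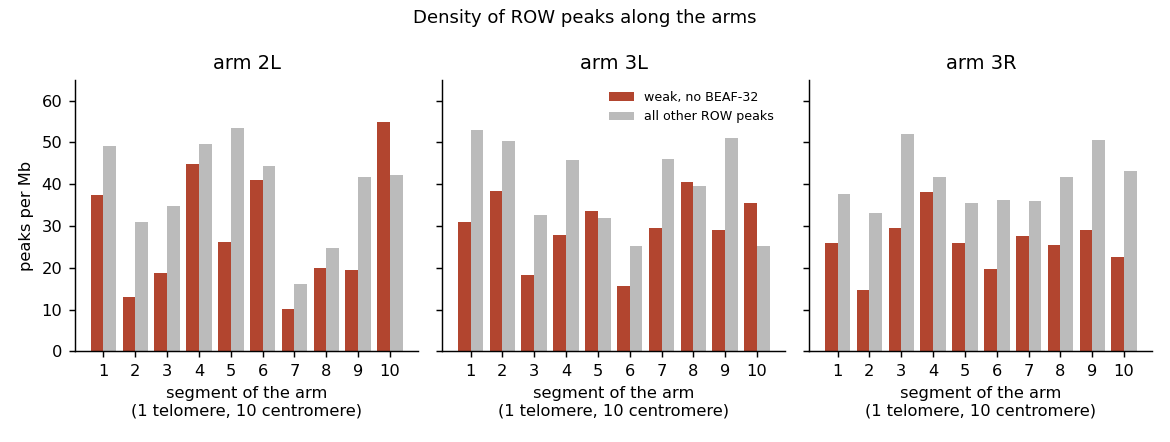
Peaks per Mb (vertical) in 10 equal segments of each arm from telomere to centromere (horizontal) for weak ROW peaks without BEAF-32 and for all other ROW peaks. The weak peaks outnumber all others in segment 10 of 2L (54.8 against 42.2 per Mb) and in segments 5, 8 and 10 of 3L (33.5 against 31.8, 40.4 against 39.6 and 35.5 against 25.3), and in no segment of 3R.

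Weak sites near the centromere had a larger median width and a lower median ratio than those elsewhere. In the 2 Mb next to the centromere end of each arm there were 250 sites with a median width of 522.5 bp, a fold enrichment of 2.25, a −log10 q of 6.46 and 63 fragments. The other 1858 sites had medians of 427 bp, 2.85-fold, 15.1 and 82 fragments. These values were not summarised for the other classes of ROW peaks near the centromere. Whether the difference is particular to the weak sites without BEAF-32 was therefore not tested. Median widths there were 536.5 bp on 2L, 506 bp on 3L and 539 bp on 3R, against 416.5, 430 and 430 bp in the rest of each arm. Median fold enrichments were 2.16, 2.21 and 2.68, against 2.68, 2.99 and 2.80, so the gap was smallest on 3R. Share of ROW peaks went with the arm, at 58.3% (51.3 to 64.9) on 2L, 61.2% (52.9 to 68.8) on 3L and 33.1% (26.0 to 41.0) on 3R. The background there was a median of 23.5 fragments, against 24.1 in the rest of the arms. Repeats are common next to centromeres, and the sources used here do not say how reads that match several places were treated.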

How the data were processed

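Each antibody has 1 peak list in the 10-column narrowPeak layout. Bowtie2, SAMtools, MACS2 and deepTools, and the build dm3, are named in the submitters' processing notes without versions or roles; pooling and the control library are not given in the sources used here. Column 7 as the authors deposited it was read as a ratio, the fold enrichment at the summit. The authors' columns 8 and 9 were taken for the −log10 p and the −log10 q of the summit. Column 5, a deposited display score, was not used. The summit is the peak start plus column 10. Groups follow the titles, since the numbers in the antibody field climb over the BEAF-32 samples.

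Pileup and local background were solved from columns 7 and 8 by the Poisson formula of MACS2. Depth beyond this is unknown. Distances are between summits unless stated. Stronger means at least 6-fold, flanking within 2000 bp and alone over 10000 bp from any ROW summit. The rule, the classes and the peaks named were chosen with earlier results of these data known. Named peaks are the 5 of highest −log10 q, the 5 widest, the 5 most isolated, 3 on either side of the threshold, the 3 longest runs, the 3 richest bins, and 1 median site per neighbourhood; others are marked. Alternatives were other limits on fold, BEAF-32 distance, −log10 q, flanking and alone distances, and distances between edges; 2 were added after seeing the data. Work was done in Python 3.11.15 (matplotlib 3.10.9, scipy 1.17.1, pandas 2.3.3, numpy 2.4.6), and tested on simulated data. Start sites, base composition and motifs were not analysed here, since the reference annotation used another build.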

Additional observations from a re-analysis of the deposited data

Results flagged for a closer look

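The same rule also found 1570 ROW peaks on sequences outside 2L, 3L and 3R, which the comparisons above did not use. They made up 42.7% of the 3673 ROW peaks there. The count was 602 on 2R (39.2% of its ROW peaks), 513 on the X (38.1%), 71 on chromosome 4 (51.8%) and 384 on the remaining sequences (58.8%).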

How the results depend on the processing

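No paired analysis was possible because the lists hold no values for single samples, so that none could be left out either. Of 48 recalculations of the 6 main results, 19 stayed within the 95% counting interval of the reported value, or within 1.5 times the reported count, and 29 did not; the other values follow, beside the reported 2108 sites, 434 bp, −log10 q of 13.7, 9.54% flanking, 16.8% alone and 8153.5 bp to BEAF-32. With a limit of 4-fold for both weak and stronger, the median width was 404 bp, the −log10 q 9.94, the flanking share 13.8% and the distance to BEAF-32 8857.5 bp. With 8-fold the median width was 452 bp, the −log10 q 15.8 and the flanking share 5.43%, while the distance to BEAF-32, 7867 bp, stayed within its interval. Barring BEAF-32 summits within 5000 bp left 1372 sites, 425 bp, 11.1, 4.96% flanking, 25.1% alone and 14501 bp. A −log10 q of at least 10 left 1255 sites, 465 bp, 26.5, 13.1% flanking, 13.5% alone and 6340 bp. Flanking shares were 1.33% within 1000 bp, 23.4% within 5000 bp and 13.1% by interval edges. Shares alone were 35.4% at over 5000 bp and 6.45% at over 20000 bp. Those follow from the limits by construction. Without the 2 Mb next to each centromere, added after seeing the data, the −log10 q was 15.1. Taking the ratio over the genome-wide background, also added then, left 1705 sites, within 1.5 times the reported count. It gave 421 bp, a −log10 q of 10.04, 20.8% alone and 10095 bp. All 1705 sites are in the reported set by construction, because the local background never fell below the genome-wide one. Depth for a single sample is unknown, and with 38 fragments at the faintest site the counting error alone is wide.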
